A study of Homo sapiens with 15 samples.

Results

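The transcriptome described here is that of MT-2 cells that received no treatment. MT-2 is a T-cell line that carries human T-cell leukemia virus type 1 (HTLV-1). It rests on 3 of the 15 arrays of the series, called replicates 1, 2 and 3. The sample titles sort all arrays into 3 sets of 5, each holding every condition once, and these sets are called experiments 1, 2 and 3 here. No label says that they were separate cultures, and experiments 2 and 3 share a date in the titles while experiment 1 has another, so experiments 2 and 3 may be splits of 1 culture. The cells were kept for 48 hours in RPMI medium with heat-inactivated foetal calf serum and received neither ascorbic acid (AA) nor interferon. The other 12 arrays hold the same line after 48 hours with AA at 10 (low dose), 50 (intermediate dose) or 100 (high dose) µg/ml, or with 1000 IU/ml of IFN-α2A, 1 array per experiment. They serve only to show whether a difference between experiments recurs in arrays outside the untreated set. All samples are 1 cell line, so nothing here separates features of HTLV-1 transformation from features of this line, and no uninfected T cell was measured.

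HTLV-1 immortalizes CD4+ T cells. Its transactivator Tax switches on NF-κB, a family of transcription factors normally released by antigen or cytokine signals, and also acts through CREB at cyclic AMP response elements, while the antisense-strand product HBZ binds AP-1 and CREB family proteins. Cells carrying the virus are known for a constantly activated phenotype with surface CD25, the interleukin-2 receptor α chain encoded by IL2RA. The viral transcripts themselves were not analysed here.

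An Affymetrix whole-transcript array reports 1 log2 signal per transcript cluster, a set of probes along 1 gene. Of 28926 clusters, 19310 carry exactly 1 gene symbol and were ranked by their mean log2 signal over the 3 untreated arrays, so that percentile 100 is the brightest. They stand for 18377 genes, and a gene with several clusters is represented by the brightest. Signal depends on the probes of a cluster as well as on the amount of RNA, so a rank locates a signal on the array and is not an abundance, and no gene is tested against another. Clusters of 1 gene can disagree, as for SDHC (percentiles 97.6 and 71.0) and SLC1A5 (94.8 and 52.5). Taking the brightest cluster places 25.1% of all genes in the top quartile and 24.9% in the bottom quartile. The top quartile began at a mean log2 signal of 8.72 and the bottom quartile ended at 5.91. Of the list members, FOSL1 (8.74) lay just inside the top quartile and NCR1 (8.71) just outside, while IL12B (5.93) lay just above the bottom quartile and MX1 (5.89) just within it. As a level of background, the 95th percentile of olfactory receptor genes was 6.42, 6.30 and 6.18 in replicates 1, 2 and 3. Of all genes, 66.2% exceeded it in all 3 arrays. The 95th percentile of keratin-associated protein and bitter taste receptor genes was higher, at 8.22, 8.29 and 8.14. A gene called above the background level here can therefore lie below that second level. The array medians were 6.78, 6.77 and 6.73, and the arrays correlated with r = 0.994 (1 and 2), 0.995 (1 and 3) and 0.997 (2 and 3) across clusters, which are not independent replicates.

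The label of the cells was checked against 4 markers, IL2RA, MIR155HG, CD4 and CD40. IL2RA measured 13.27, 13.28 and 13.33 in replicates 1, 2 and 3, at percentile 99.9. CD4, the co-receptor of helper T cells, measured 10.97, 10.87 and 10.94, at percentile 96.3. MIR155HG, the host transcript of a microRNA induced by lymphocyte activation, shares its cluster with MIR155 and therefore stands outside the ranking. This cluster measured 10.73, 10.51 and 10.40, brighter than 94.5% of the ranked clusters. CD40, a TNF receptor family member that engages CD40LG on activated T cells, measured 7.16, 7.37 and 7.33, at percentile 49.4. The first 3 markers were thus far above the background level in every array. CD40 was above it in every array but in the middle of the ranking. In every array it lay below the level of keratin-associated protein and bitter taste receptor genes.

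Among 173 microRNA genes with a cluster of their own, 116 lay in the bottom quartile and 3 in the top quartile, MIR142, MIR21 and MIR326. MIR142, a microRNA gene characteristic of blood cells, measured 8.70, 10.04 and 9.77 in replicates 1, 2 and 3, so that 1 array was low and the other 2 were high. MIR21, which is raised in many tumours, measured 9.29, 9.52 and 9.47, and MIR326 measured 9.43, 9.50 and 9.12. Both were within a narrower range. Probes on these clusters detect primary or precursor RNA, and the mature products were not measured. The mature sequences of these genes and of the marker MIR155 (RefSeq, GRCh38.p14) are shown 5′ to 3′ because the seed, bases 2 to 8, in capitals, sets which messages each can pair with. No pair of the 5 sequences has the same seed.
hsa-miR-155-5p (chr21:25573983-25574006, plus strand): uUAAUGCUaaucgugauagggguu
hsa-miR-142-5p (chr17:58331283-58331303, minus strand): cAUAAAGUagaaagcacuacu
hsa-miR-142-3p (chr17:58331245-58331267, minus strand): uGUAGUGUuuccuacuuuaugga
hsa-miR-21-5p (chr17:59841273-59841294, plus strand): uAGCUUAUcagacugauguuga
hsa-miR-326 (chr11:75335108-75335127, minus strand): cCUCUGGGcccuuccuccag

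**Figure D1:**
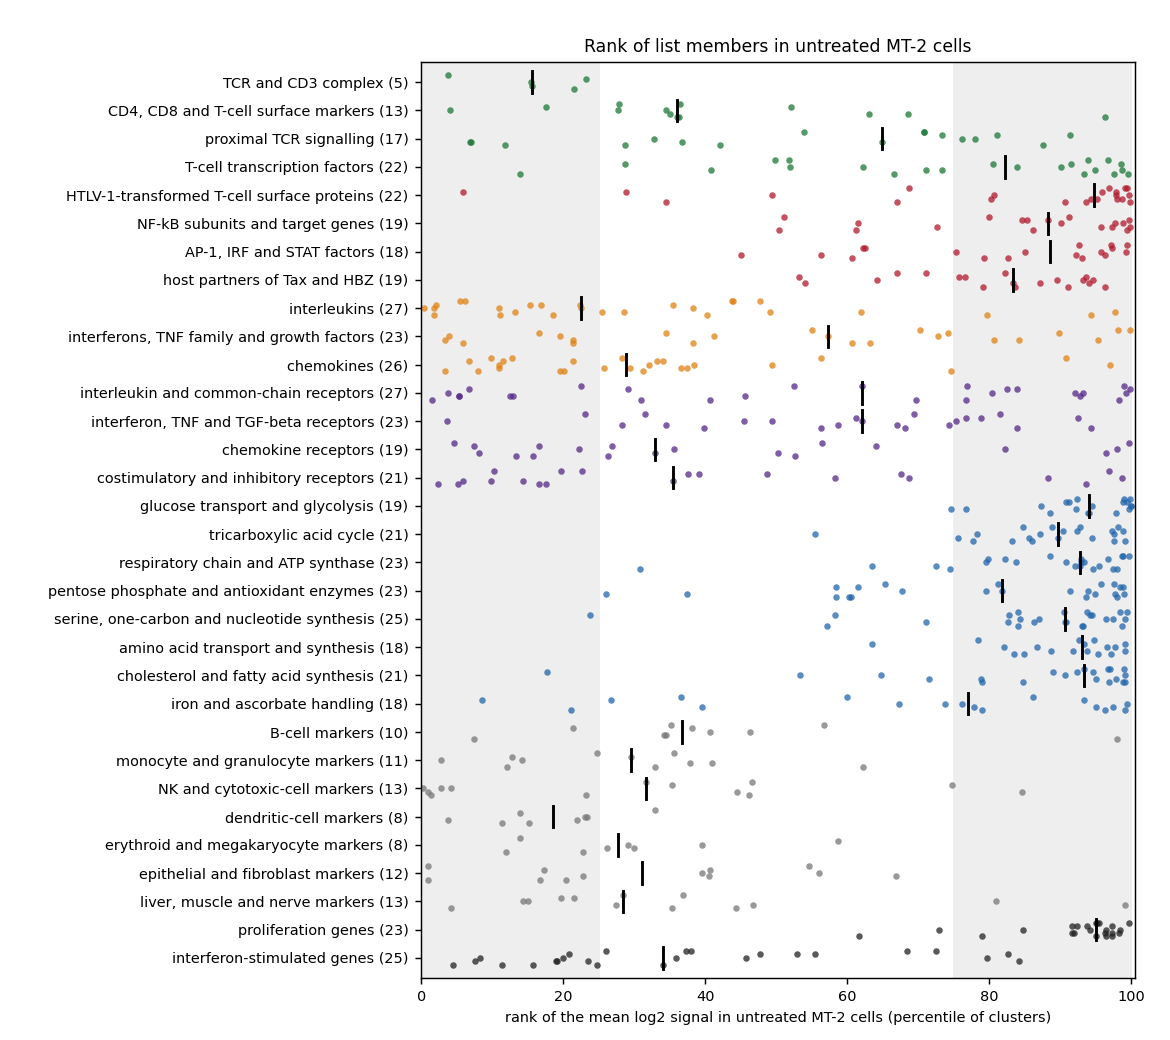
Rank of the members of 32 gene lists in untreated MT-2 cells. The x axis gives the percentile of the mean log2 signal over the 3 untreated arrays among 19310 clusters, each point is 1 gene, the black bar is the median of a list, the number of genes measured follows its name, and the grey bands are the bottom and the top quartile. Genes of the CD3 complex lie at the left, whereas NF-κB, AP-1, glycolysis and proliferation genes lie at the right.

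Of 57 measured genes of the T-cell lists, 18 lay in the top quartile (31.6%, against 25.1% of all genes) and 11 in the bottom quartile (19.3%, against 24.9%), and 40 exceeded the background level in all 3 arrays (70.2%, against 66.2%). As a whole these shares were near those of all genes. The 11 became 6 when every cluster was ranked, and the 40 became 24 with keratin-associated protein and bitter taste receptor genes as background. The list of the CD3 complex was the part with the lowest ranks, and transcription factors the part with the highest. In bulk RNA, fewer cells with a transcript and less transcript per cell cannot be told apart, which holds for every level given here.

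All 5 genes listed for the T-cell receptor and CD3 complex lay in the bottom quartile, at a median percentile of 15.6. None exceeded the background level in all 3 arrays. The list holds no α, β, γ or δ chain gene of the receptor, so those chains were not examined. CD3D, a signalling chain of the complex, measured 5.68, 5.54 and 5.82 in replicates 1, 2 and 3. CD3E and CD3G, its other CD3 chains, measured 5.25, 5.24 and 5.28, and 5.23, 5.29 and 5.21. CD247, the ζ chain, measured 5.74, 5.95 and 5.68, and TRAT1, an adaptor that stabilizes the complex, 4.21, 4.16 and 3.94. All of these values were below the background level of their own array.

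Of 13 measured T-cell surface markers, CD4 was the only one in the top quartile, while CD28 and PTPRC lay in the bottom quartile. CD28, the receptor for the co-stimulatory signal, measured 5.45, 5.40 and 5.37. PTPRC, the CD45 phosphatase that sets the threshold of antigen receptor signalling, measured 4.38, 4.14 and 3.93, at percentile 4.1. CD7 (8.39, 8.40 and 8.24) and CD2 (7.48, 7.42 and 7.40), adhesion and co-stimulatory proteins of T cells, were above the background level in every array. CD5 (6.15, 6.13 and 5.96), an inhibitor of receptor signalling, and CD8B (6.05, 6.11 and 6.05) were not above it in any array. The other CD8 chain, CD8A (6.49, 6.63 and 6.37), was slightly above it in every array, at percentile 35.1.

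The signalling proteins below the receptor spread over the whole ranking, with 5 of 17 in the top quartile and 3 in the bottom quartile. PLCG1, which produces the second messengers of T-cell activation, measured 10.03, 10.11 and 10.06, and the adaptor LCP2 9.65, 9.71 and 9.61. SYK, a kinase better known in B cells, measured 9.21, 9.04 and 9.09, at percentile 81.1. Its T-cell counterpart ZAP70 measured 6.39, 6.36 and 6.36, at percentile 32.8 and not above background in all 3 arrays. LCK, the kinase that starts the cascade, measured 6.85, 6.93 and 6.85. THEMIS, SKAP1 and PTPN22 made up the bottom quartile. These are rank positions of different probes and not a comparison of kinase levels.

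Of 22 transcription factors of T cells, 12 lay in the top quartile and 1, IKZF2, in the bottom quartile. TOX, a factor of chronically stimulated T cells, measured 12.70, 12.60 and 12.64, at percentile 99.5. MYB measured 11.82, 11.75 and 11.75, ID2, an inhibitor of E proteins, 11.57, 11.78 and 11.83, and PRDM1, which drives effector differentiation, 11.25, 11.27 and 11.37. Of the factors that name T-cell subsets, TBX21 (Th1) at percentile 73.3, GATA3 (Th2) at 66.5 and FOXP3 (regulatory T cells) at 51.9 lay below the top quartile. BCL6 (follicular helper T cells) lay within it, at 8.86, 9.13 and 9.24 and percentile 80.4. FOXP3 measured 7.71, 7.42 and 7.13, all above the background level, in different quartiles between arrays.

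**Figure D2:**
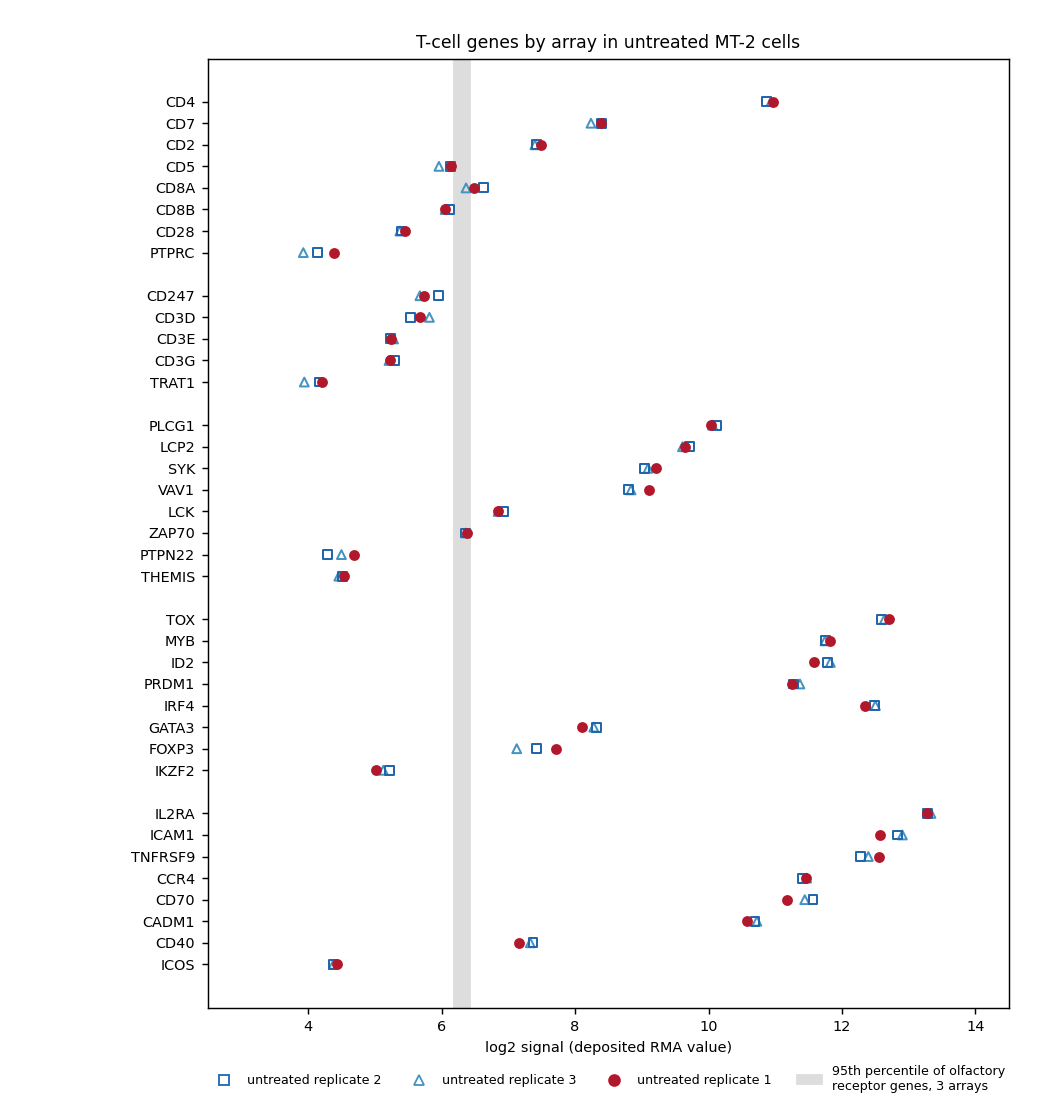
Log2 signal of T-cell genes in each untreated array. The x axis is the deposited log2 signal, each symbol is 1 array (squares, replicate 2; triangles, replicate 3; filled circles, replicate 1), blocks from top to bottom are surface markers, receptor complex, receptor signalling, transcription factors and surface proteins of HTLV-1-transformed cells, and the grey band spans the background level of the 3 arrays. All 5 genes of the receptor complex block (CD3 chains, CD247 and TRAT1) lie to the left of the band. The 3 arrays lie close together for most genes.

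Genes tied to HTLV-1 transformation held high ranks. Of 78 measured members, 57 were in the top quartile (73.1%, against 25.1% of all genes) and 1, ICOS, in the bottom quartile, and 76 exceeded the background level in all 3 arrays, ICOS and NRP1 being the other two. The lists were chosen with earlier results of these data known, so this share describes the lists and is no test.

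Of 22 surface proteins described on HTLV-1-transformed T cells, 16 lay in the top quartile, at a median percentile of 94.7. ICAM1, the adhesion ligand of LFA-1, measured 12.57, 12.84 and 12.90 in replicates 1, 2 and 3. TNFRSF9 (4-1BB, a co-stimulatory receptor) measured 12.56, 12.27 and 12.40, and TFRC, the transferrin receptor of dividing cells, 12.33, 12.02 and 12.23. CCR4, a chemokine receptor of adult T-cell leukemia cells, measured 11.46, 11.40 and 11.47. CADM1, an adhesion molecule used to mark infected cells, measured 10.57, 10.70 and 10.73, and CD70, the ligand of CD27, 11.18, 11.57 and 11.44. ICOS, an inducible co-stimulator, measured 4.43, 4.37 and 4.38, at percentile 5.94.

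All 19 measured NF-κB subunits and targets exceeded the background level in all 3 arrays, and 14 lay in the top quartile. The inhibitor NFKBIA, which NF-κB itself induces, measured 12.37, 12.46 and 12.48, and the deubiquitinase TNFAIP3, another inhibitor that is an NF-κB target, 11.67, 12.02 and 11.99. Among the subunits, REL measured 11.48, 11.22 and 11.39, NFKB2 11.17, 11.15 and 11.28, and NFKB1 9.61, 9.43 and 9.54. RELA measured 9.35, 9.53 and 9.49, and RELB 9.17, 8.98 and 8.98, all in the top quartile. The upstream kinase MAP3K8 measured 9.54, 9.78 and 9.90, and IKBKB, the IκB kinase β that also binds Tax and is counted with its partners, 9.25, 9.35 and 9.33. Both were in the top quartile, whereas MAP3K14 (NIK) and IKBKE were in the third quartile. CCND2, a cyclin that drives entry into the cell cycle, measured 12.81, 12.95 and 12.94.

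Of 18 AP-1, IRF and STAT factors, 13 lay in the top quartile and none in the bottom quartile. IRF4, a lymphocyte factor induced by antigen receptor and NF-κB signals, measured 12.35, 12.48 and 12.50, and STAT3 12.30, 12.28 and 12.29. JUNB measured 11.05, 11.25 and 11.28, and BATF3, an AP-1 partner, 10.92, 10.97 and 10.93. STAT5A, which acts downstream of the interleukin-2 receptor, measured 11.09, 11.08 and 11.23, and MYC 10.74, 10.81 and 10.83. FOS was in the third quartile, at 7.53, 8.07 and 8.12, with replicate 1 below the others.

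Host proteins that bind Tax or HBZ were also mostly bright, with 14 of 19 in the top quartile and none in the bottom quartile. CREB1, the partner of Tax at the viral promoter, measured 10.97, 10.91 and 10.89, and its co-activators EP300 and CREBBP 9.84, 9.80 and 9.94, and 9.74, 9.50 and 9.63. CDKN1A, the p21 cell cycle inhibitor, measured 9.52, 10.35 and 10.25, a spread of 0.45 (SD) that was the widest of this list. CDKN2A, which encodes p16 and is often lost in tumours, measured 8.36, 8.54 and 8.59, above the background level in every array. TERT, the telomerase subunit, measured 7.41, 7.55 and 7.50, at percentile 53.1.

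A set of 5 promoters is shown because their genes stand at different ranks, and 4 hold the same κB-like letters. Each run spans 250 bases before to 50 bases after the annotated start (RefSeq, GRCh38.p14), 5′ to 3′ on the strand of the gene. Capitals mark GGGA followed by any 3 bases and TCC, on either strand, a pattern close to sites bound by NF-κB, or, in MIR155HG, the AP-1 letters TGACTCA on either strand. Matches that overlap by all but 1 base run together.
MIR155HG (chr21:25561895-25562194, plus strand): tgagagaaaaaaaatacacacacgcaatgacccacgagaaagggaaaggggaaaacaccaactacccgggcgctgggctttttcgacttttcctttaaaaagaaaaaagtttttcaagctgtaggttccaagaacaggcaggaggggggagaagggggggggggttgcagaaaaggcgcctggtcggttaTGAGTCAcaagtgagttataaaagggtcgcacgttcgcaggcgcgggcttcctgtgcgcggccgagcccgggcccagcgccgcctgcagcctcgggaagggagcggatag
IL2RA (chr10:6062318-6062617, minus strand): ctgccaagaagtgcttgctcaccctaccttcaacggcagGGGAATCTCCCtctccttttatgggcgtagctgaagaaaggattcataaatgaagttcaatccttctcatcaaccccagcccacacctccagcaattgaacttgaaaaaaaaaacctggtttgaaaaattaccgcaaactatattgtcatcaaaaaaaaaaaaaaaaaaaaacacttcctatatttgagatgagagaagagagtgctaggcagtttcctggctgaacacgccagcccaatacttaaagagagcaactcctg
NFKBIA (chr14:35404700-35404999, minus strand): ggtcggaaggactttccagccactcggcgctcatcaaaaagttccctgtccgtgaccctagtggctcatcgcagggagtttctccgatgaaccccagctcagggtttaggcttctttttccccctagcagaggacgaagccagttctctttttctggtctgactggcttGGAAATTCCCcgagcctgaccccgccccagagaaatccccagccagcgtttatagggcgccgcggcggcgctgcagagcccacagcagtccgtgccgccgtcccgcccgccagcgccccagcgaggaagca
CXCL2 (chr4:74099146-74099445, minus strand): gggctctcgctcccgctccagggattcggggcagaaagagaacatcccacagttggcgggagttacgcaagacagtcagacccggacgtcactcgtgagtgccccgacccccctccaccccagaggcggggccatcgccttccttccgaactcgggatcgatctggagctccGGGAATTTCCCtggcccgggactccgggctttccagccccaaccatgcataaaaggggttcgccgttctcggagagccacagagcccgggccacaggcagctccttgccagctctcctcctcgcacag
CCL1 (chr17:34363184-34363483, minus strand): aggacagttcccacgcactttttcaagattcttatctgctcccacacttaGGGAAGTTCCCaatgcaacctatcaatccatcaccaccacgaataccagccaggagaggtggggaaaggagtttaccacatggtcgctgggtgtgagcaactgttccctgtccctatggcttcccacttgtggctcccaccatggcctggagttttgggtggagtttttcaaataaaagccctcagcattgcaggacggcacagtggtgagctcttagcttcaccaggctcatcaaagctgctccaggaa

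The κB-like letters began 211 bases before the start of IL2RA (percentile 99.9), 81 before NFKBIA (99.4), 200 before CCL1 (74.6) and 78 before CXCL2 (12.7). They were present in 1374 of 27305 promoters (5.03%), and in 5 of 16 promoters of the NF-κB list (NFKB1, REL, NFKBIA, TNFAIP3 and MAP3K8). Chemokines held them in 8 of 19 promoters and interferon-stimulated genes in 6 of 19, whereas AP-1, IRF and STAT factors held them in 0 of 15. By signal, the share was 5.02%, 6.06%, 4.71% and 5.48% in the promoters of genes of the first (dimmest) to the fourth quartile, with no steady order. The AP-1 letters, found in 5.05% of all promoters and 60 bases before the start of MIR155HG, were held by 5.38%, 3.89%, 3.20% and 2.74% of the promoters of the same quartiles. The letters of the cyclic AMP response element, TGACGTCA, were held by 1.94% of all promoters and by 1.25%, 1.90%, 3.45% and 3.54% of these quartiles. The mean G+C content was 52.8%, 62.5%, 65.1% and 64.6%, and its part in these shares was not tested. A match is a run of letters and not a binding site.

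Cytokine genes were mostly dim, with a few bright exceptions. Of 76 measured interleukins, TNF family ligands, growth factors and chemokines, 11 lay in the top quartile and 32 in the bottom quartile (42.1%, against 24.9% of all genes), and 34 exceeded the background level in all 3 arrays (44.7%, against 66.2%). The 32 became 21 when every cluster was ranked, and the 34 became 12 with the other background genes. The brightest was LTA (lymphotoxin α), which measured 12.97, 13.01 and 13.03.

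Of 27 interleukins, 3 were in the top quartile and 14 in the bottom quartile. EBI3, a subunit shared by heterodimeric cytokines, measured 11.43, 11.33 and 11.34 in replicates 1, 2 and 3. IL1A measured 10.56, 10.40 and 10.57, and IL32 8.82, 9.17 and 9.09. IL2, the growth factor bound by CD25, measured 3.80, 3.78 and 3.79, at percentile 1.75 and below the background level in every array. The Th2 cytokines IL4 (4.47, 4.47 and 4.31), IL5 (3.69, 3.78 and 3.95) and IL13 (5.67, 5.78 and 5.79) were likewise in the bottom quartile. IL10, an inhibitory cytokine, measured 6.52, 6.51 and 6.51, above the background level in all 3 arrays. IL6 measured 7.37, 8.07 and 8.52, an SD of 0.58 that was the largest of the interleukins.

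Of 23 interferons, TNF family ligands and growth factors, 6 were in the top quartile and 7 in the bottom quartile. TNFSF10 (TRAIL), a death ligand, measured 11.47, 11.48 and 11.57, and TNFSF4 (OX40L), a co-stimulatory ligand, 10.54, 10.71 and 10.82. VEGFA (9.28, 9.32 and 9.47) and TGFB1 (8.99, 9.16 and 9.10) were also in the top quartile. IFNG measured 4.41, 4.34 and 4.41, IFNB1 4.10, 4.01 and 4.06 and IFNA2 4.23, 4.05 and 4.11. These interferon genes were all below the background level.

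Of 26 chemokines, 2 lay in the top quartile and 11 in the bottom quartile, and 7 exceeded the background level in all 3 arrays. CCL3, which attracts monocytes and T cells, measured 10.94, 11.11 and 11.23, though its near-identical copies make the source of this signal uncertain. CCL5, a chemokine secreted by activated T cells, measured 9.72, 10.17 and 10.13. CCL22 and CCL17, the ligands of CCR4, measured 6.66, 6.55 and 6.62, and 7.43, 7.29 and 7.13, at percentiles 37.5 and 49.4, whereas CCR4 itself was at 98. CXCL8 measured 6.33 in every replicate, below the background level of replicate 1 and above that of the others. CCL1, the ligand of CCR8, was the chemokine with the widest spread, at 7.33, 9.37 and 9.40, which places replicate 1 apart from the others.

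**Figure D3:**
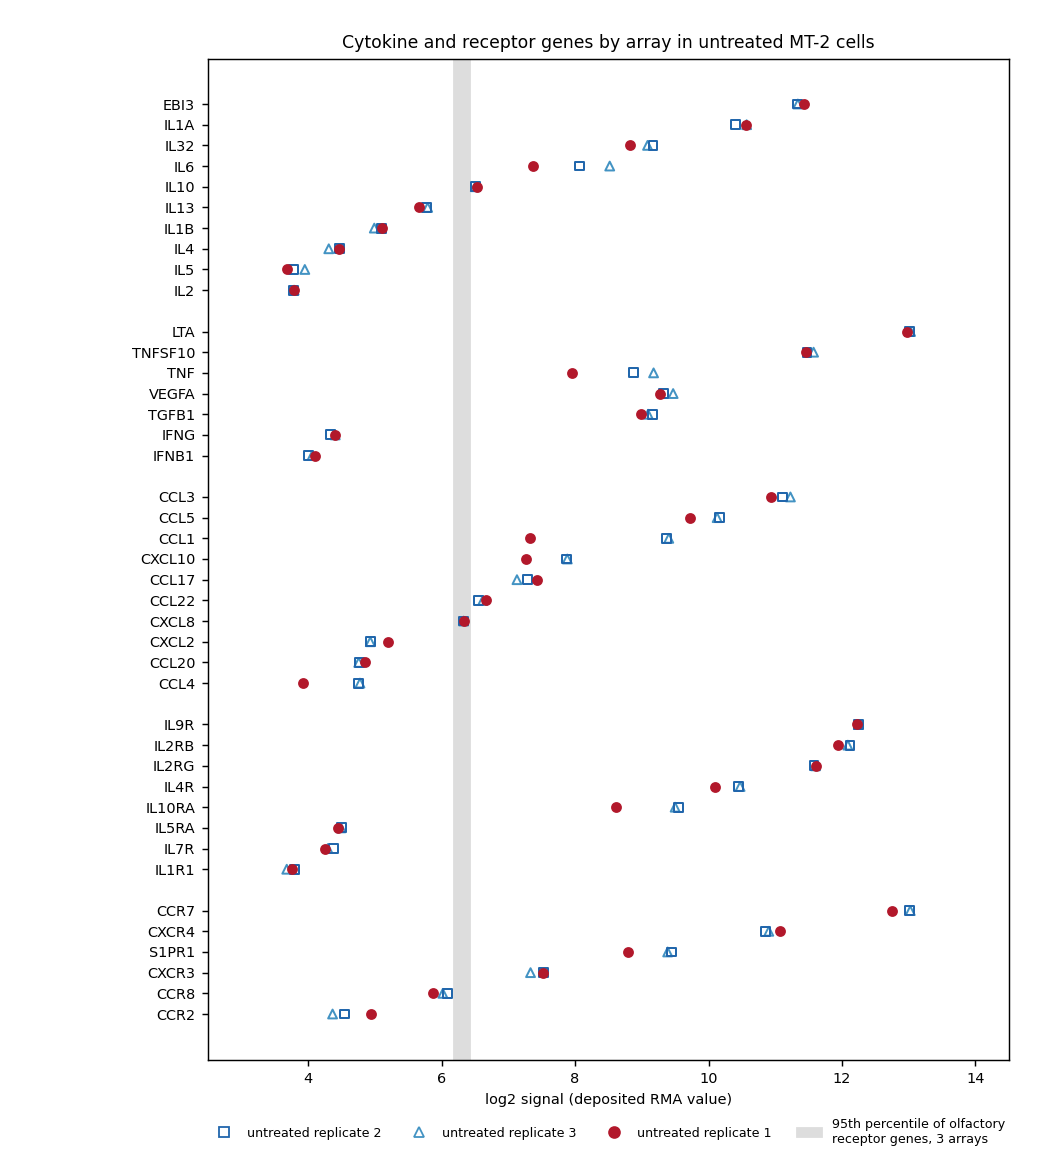
Log2 signal of cytokine and receptor genes in each untreated array. The x axis is the deposited log2 signal, each symbol is 1 array (squares, replicate 2; triangles, replicate 3; filled circles, replicate 1), blocks from top to bottom are interleukins, TNF family, growth factors and interferons, chemokines, interleukin receptors, and chemokine receptors with S1PR1, and the grey band spans the background level of the 3 arrays. LTA, EBI3 and CCL3 lie far to the right, IL2, IL4 and IL5 to the left of the band, and CCL1, IL6 and TNF have their replicate 1 symbol apart from the others.

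Of 90 receptor genes, 27 lay in the top quartile and 27 in the bottom quartile (30.0% each, against 25.1% and 24.9% of all genes), shares near those of all genes. Chains of the interleukin-2 receptor family were among the brightest. IL2RB, the signalling β chain, measured 11.93, 12.12 and 12.09, and IL2RG, the common γ chain, 11.61, 11.58 and 11.60, at percentiles 98.9 and 98.2. IL9R measured 12.22, 12.25 and 12.25, although near-identical pseudogenes make its signal uncertain. IL4R (10.09, 10.44 and 10.47) and IL21R (10.07, 10.16 and 10.23) were in the top quartile as well. IL7R, the receptor of resting T cells, measured 4.26, 4.38 and 4.30 and lay in the bottom quartile, as did IL5RA, IL1R1, IL12RB2, IL18RAP, IL3RA, IL23R and IL1RL1. Every chain of the high-affinity interleukin-2 receptor was at percentile 98.2 or above.

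Among 23 receptors for interferons, TNF family members and TGF-β, 7 were in the top quartile and 2, IFNLR1 and TNFRSF17, in the bottom quartile. FAS, the death receptor, measured 10.49, 10.49 and 10.60, and TNFRSF10B, a receptor of TRAIL, 9.81, 10.43 and 10.45. IFNAR1 (9.35, 9.20 and 9.43) and IFNAR2 (8.00, 7.73 and 7.69), which form the IFN-α receptor, were above the background level in every array, as were IFNGR1 (7.97, 7.91 and 8.09) and IFNGR2 (8.99, 8.73 and 8.77).

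Of 19 chemokine and sphingosine phosphate receptors, 4 were in the top quartile. CCR7, which guides lymphocytes into lymph nodes, measured 12.75, 13.02 and 13.02, and CXCR4, the receptor of CXCL12, 11.08, 10.86 and 10.90. S1PR1, needed to leave lymphoid organs, measured 8.79, 9.44 and 9.39, with replicate 1 low. CCR8, the receptor of CCL1, measured 5.87, 6.09 and 6.02 and was not above the background level in any array. The bottom quartile held 7 of them, namely CCR1, CCR2, CX3CR1, CXCR1, CXCR2, CXCR5 and CXCR6.

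Of 21 co-stimulatory and inhibitory receptors and ligands, 4 were in the top quartile and 10 in the bottom quartile. CD80 and CD86 are the ligands of CD28 and CTLA4 on antigen-presenting cells. CD80 averaged 11.05 ± 0.0453 (SD, n = 3) and CD86 measured 10.25, 10.43 and 10.52, at percentiles 96.8 and 93.6, whereas CD28 was at 17.6. CTLA4, the inhibitory counterpart of CD28, measured 8.57, 8.21 and 8.28, at percentile 68.7. The inhibitory receptors TIGIT (5.45, 5.19 and 5.35), HAVCR2 (4.82 in every replicate), BTLA (4.75, 4.89 and 4.72) and CD160 (4.43, 4.23 and 4.23) were in the bottom quartile. LAG3, also inhibitory, measured 6.76, 6.75 and 6.61, above the background level in all 3 arrays and at percentile 39.1. CD96 of the same list measured 10.02, 9.60 and 9.61, in the top quartile at percentile 88.3.

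Metabolic genes held higher ranks still, at a median percentile of 92.0 against 88.9 for the genes of HTLV-1 transformation. Of 168 measured, 136 lay in the top quartile (81.0%, against 25.1% of all genes) and 4 in the bottom quartile, namely MTHFD2L, ELOVL6, TET1 and SLC40A1, and 161 exceeded the background level in all 3 arrays. Glycolysis had 18 of 19 members in the top quartile, the exception being PFKM (8.29, 9.04 and 8.77), which lay just outside it. GAPDH measured 14.03, 14.01 and 14.04, LDHA, which reduces pyruvate to lactate, 13.30, 13.31 and 13.33, and ENO1 13.19, 13.15 and 13.19. The glucose transporter SLC2A1, also a receptor of HTLV-1, measured 11.26, 11.47 and 11.40. Of the hexokinases, HK2 measured 10.09, 9.90 and 10.06 and HK1 9.66, 9.61 and 9.65.

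The tricarboxylic acid cycle had 20 of 21 members in the top quartile, with MDH2 (12.21, 12.19 and 12.24) the brightest and IDH2 (7.73, 7.53 and 7.63) the exception. The respiratory chain and ATP synthase had 19 of 23, and ATP5F1B, the catalytic subunit of the synthase, measured 12.78, 12.90 and 12.93. Of serine, one-carbon and nucleotide synthesis genes, 21 of 25 were in the top quartile. SHMT2 (12.33, 12.44 and 12.40), MTHFD2 (12.32, 12.14 and 12.26) and PHGDH (11.70, 11.80 and 11.89), which feed mitochondrial one-carbon units and serine, were each at percentile 98.7 or above. Their counterparts SHMT1 (7.76, 7.72 and 7.86) in the cytosol and MTHFD2L (5.93, 5.72 and 5.84) were at percentiles 58.3 and 23.8.

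Amino acid transport and synthesis had 17 of 18 members in the top quartile, with SLC38A1, a glutamine transporter, at 12.13, 12.14 and 12.24. Pentose phosphate and antioxidant genes had 14 of 23 there. PGD, an enzyme that makes NADPH, measured 12.09, 12.04 and 11.98, while the stress-inducible HMOX1 (6.68, 6.66 and 6.49) and GCLM (5.95, 5.98 and 5.99) were at percentiles 37.5 and 26. Since the series tested AA, genes of iron and ascorbate handling were also examined, and 10 of 18 were in the top quartile. The ascorbate transporter SLC23A2 measured 8.89, 8.75 and 8.74, at percentile 76.2, and its relative SLC23A1 6.81, 6.81 and 6.59, at 39.6. Of the ascorbate-dependent DNA demethylases, TET2 measured 8.79, 9.01 and 8.91, TET3 8.33, 8.30 and 8.20 and TET1 5.76, 5.43 and 5.76. Cholesterol and fatty acid synthesis had 17 of 21 members in the top quartile, among them SCD (12.52, 12.05 and 12.14), FADS2 (12.20, 12.15 and 12.18), FADS1 (12.22, 11.92 and 12.08) and HMGCS1 (12.34, 11.73 and 11.78).

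Markers of other cell types held low ranks as a group. Of 75, 4 were in the top quartile (5.33%, against 25.1% of all genes) and 34 in the bottom quartile (45.3%, against 24.9%). The background level was exceeded in all 3 arrays by 33 of them (44%, against 66.2%). The 4 in the top quartile included CR2 and SNAP25. CR2, a complement receptor of B cells and the receptor of Epstein-Barr virus, measured 11.53, 11.42 and 11.41. SNAP25, a protein of synaptic vesicle fusion, averaged 12.18 ± 0.159 (SD, n = 3), at percentile 99.1. PRF1 (perforin of cytotoxic cells) and MBP (myelin basic protein) were the other two, at 9.44, 9.40 and 9.36 and at 9.04, 9.10 and 9.18. The B-cell marker MS4A1 (4.67, 4.46 and 4.54), the monocyte marker LYZ (4.07, 3.93 and 3.92), the granzyme GZMA (4.11, 3.87 and 3.96) and the liver gene ALB (4.23, 4.14 and 4.10) were below the background level in every array. Their lists were mixed, since 8 of 10 B-cell markers (80%, against 66.2% of all genes) exceeded this level in all 3 arrays. So did 5 of 11 monocyte and granulocyte and 6 of 13 NK and cytotoxic-cell markers. The liver, muscle and nerve list had 6 of 13 above the background level. None of the 8 dendritic-cell markers exceeded it in all 3 arrays.

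The 3 untreated arrays were close to each other in most genes. The median SD of a cluster was 0.0918 on the log2 scale, 89.7% of clusters stayed in the same quartile in all 3 arrays, and 2.5% had an SD over 0.3. Without replicate 1, the median SD was 0.0599, the lowest over pairs of untreated arrays. The other pairs were also below 0.0918, and an SD of 2 values tends to be smaller than an SD of 3. Of 283 clusters in the upper part of the ranking (above the median rank) with an SD over 0.3, replicate 1 was the array that stood apart in 267, meaning that it lay farther from both other arrays than these lay from each other. Replicate 2 stood apart in 9 and replicate 3 in 7. Over all 19310 ranked clusters, whatever their SD, replicate 1 stood apart by the same measure in 8645. Since replicates 2 and 3 share a date, a difference of replicate 1 from both cannot be told apart from a difference between the dates.

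**Figure D4:**
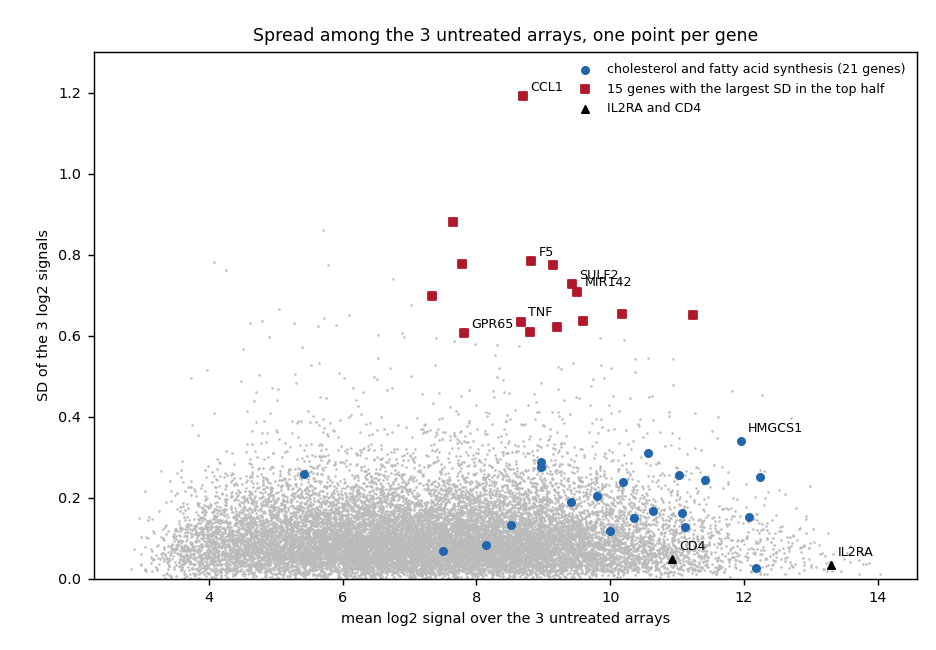
Spread of each gene among the 3 untreated arrays. The x axis is the mean log2 signal, the y axis the SD of the 3 values, each grey point is 1 gene, red squares are the 15 genes with the largest SD in the upper part of the ranking (above the median rank), blue circles are 21 cholesterol and fatty acid synthesis genes, and black triangles are IL2RA and CD4. CCL1 has the largest SD (1.19), whereas IL2RA and CD4 have SDs of 0.0326 and 0.0474.

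The 15 genes with the largest spread above the median rank were CCL1, GPR52, F5, DSC3, SNORD116-21, SULF2, MIR142, CHST15, TSPAN11, SNORD41, TGM4, TNF, GPR15, SNORA38B and GPR65, of which 4 are small nucleolar or microRNA genes. CCL1 measured 9.37 and 9.40 in replicates 2 and 3, against 7.33 in replicate 1, which is the largest SD (1.19) of all ranked genes. F5, coagulation factor V, measured 9.26 and 9.29 in replicates 2 and 3, against 7.92 in replicate 1, and SULF2, an extracellular sulfatase, 9.85 and 9.83 against 8.58. TNF measured 8.87 and 9.18 in replicates 2 and 3, against 7.96 in replicate 1. In the other direction, GPR65, an acid-sensing receptor, measured 7.37 and 7.58 in replicates 2 and 3, against 8.50 in replicate 1, and GPR52 7.05 and 7.23 against 8.66. Of the list members, 44 of 573 (7.68%, against 10.1% of all genes) did not stay in the same quartile in all 3 arrays.

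Whether such differences recur was examined in the 12 treated arrays, which come from the same experiments but did not enter the ranking. An F test of the experiment with treatment as a factor (limma, Benjamini-Hochberg adjusted p under 0.05) called 1111 of 28926 clusters, 3.84%, and 791 of 18377 genes, 4.3%. Leaving out 1 treated array moved the number of clusters between 75, when low-dose AA replicate 1 was left out, and 1901, when this was replicate 3 of high-dose AA. The size of a difference, with its standard error (SE), is the mean of experiments 2 and 3 minus experiment 1 on the log2 scale. The F test also responds to a difference between experiments 2 and 3, so its p-value is not that of this difference alone. Lists were chosen with earlier results of these data known. The called share of a list therefore describes the list and is no test.

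Of the 15 genes with the largest spread in the untreated arrays, 11 were called in the treated arrays, against 4.3% of all genes, and 14 had the same sign. The exception in sign was SNORD41, a small nucleolar RNA, and GPR52, DSC3 and MIR142 had the same sign but did not pass (adjusted p = 0.102, 0.0573 and 0.238 by the limma F test). CCL1 measured 8.95 to 10.97 with a median of 10.66 in the 8 treated arrays of experiments 2 and 3, against 8.69, 9.11, 9.55 and 7.95 in those of experiment 1 (low, intermediate and high-dose AA and IFN-α). The ranges overlap, and the difference was 1.46 (SE 0.159, adjusted p = 0.00622 by the limma F test). It was 2.06 in the untreated arrays, which were not tested by themselves. Leaving out 1 array took the 15 genes to between 3 and 13 calls. The count was 3 without replicate 1 of IFN-α or of low-dose AA, 6 without replicate 1 of intermediate-dose AA or replicate 2 of low-dose AA, and 7 without replicate 2 of intermediate-dose AA or of IFN-α.

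Of the T-cell lists, 5 of 57 genes were called (8.77%, against 4.3% of all genes), and of the co-stimulatory and inhibitory receptors 5 of 21. SLAMF6, a lymphocyte co-receptor that was not above the background level in any untreated array (6.27, 5.52 and 5.48), measured 5.43 to 5.56 with a median of 5.48 in the treated arrays of experiments 2 and 3, against 6.40, 6.30, 6.47 and 6.54 in those of experiment 1, without overlap. The difference was -0.94 (SE 0.0583, adjusted p = 0.000803 by the limma F test), and it was -0.77 in the untreated arrays, both sizes being uncertain this close to background. FOXP3 measured 7.21 to 7.44 with a median of 7.30 in the treated arrays of experiments 2 and 3, against 8.01, 7.81, 7.81 and 7.99 in those of experiment 1, also without overlap (difference -0.60, SE 0.0570, adjusted p = 0.00349 by the limma F test, and -0.44 in the untreated arrays). CD226, an activating receptor, had a difference of -0.80 in the treated and -0.60 in the untreated arrays, and LIF, a cytokine of the interleukin-6 family, -0.55 and -0.27. CCL1, CD22, CD226, FOXP3, GPR65, LIF, SLAMF6, SLC2A3 and SNORA38B were called in each of the 12 fits that left out 1 treated array. They are 9 of the 68 genes called among list members and the 15 widest genes.

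Several genes that stood out in the untreated arrays were not called. IL6 measured 8.07 and 8.52 in untreated replicates 2 and 3, against 7.37 in replicate 1, a difference of 0.92, and the difference was 0.30 in the treated arrays (SE 0.114, adjusted p = 0.225 by the limma F test). IL10RA, the ligand-binding chain of the interleukin-10 receptor, had 0.90 in the untreated and 0.46 in the treated arrays (adjusted p = 0.0552 by the limma F test). CDKN1A had 0.78 and 0.19 (adjusted p = 0.0595), and ATF4, a factor of the amino acid stress response, 0.58 and -0.05 (adjusted p = 0.12, both by the limma F test). Of 573 list members, 59 were called in the treated arrays (10.3%, against 4.3% of all genes). Of these 59, 51 had the same sign in the untreated arrays, and the exceptions were CCL5, CSF2RB, IFNGR1, MBP, NFKB2, PFKFB3, PRKCQ and VEGFA. Cholesterol and fatty acid synthesis genes made up 18 of the 59. Called or not, 319 of 573 list members and 9664 of all 18377 genes kept their sign. These counts are no measure for the 51, because they include genes that were not called.

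Genes of cholesterol and fatty acid synthesis were all lower in experiments 2 and 3, both untreated and treated. All 21 measured genes were lower in untreated replicates 2 and 3 than in replicate 1, with a median difference of -0.30, against a median of -0.02 over all genes. HMGCS1, which forms the precursor of mevalonate, measured 11.73 and 11.78 in untreated replicates 2 and 3, against 12.34 in replicate 1. INSIG1, a sterol sensor of the SREBP pathway, measured 10.36 and 10.41 against 10.92, and SCD, which desaturates fatty acids, 12.05 and 12.14 against 12.52. FADS2 had the smallest difference, -0.04.

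The same 21 genes were lower in experiments 2 and 3 within each of the 4 treatments too. The median difference was -0.58 at low-dose AA, -0.32 at intermediate-dose AA, -0.57 at high-dose AA and -0.43 under IFN-α, where the median over all genes lay between -0.03 and 0.01. In the treated arrays, 18 of 21 passed the F test, against 4.3% of all genes, and PMVK, CYP51A1 and SC5D did not. This list was chosen with earlier results of these data known, so the share is no test. Most of its members lay in the top quartile, whereas all genes include dim ones. HMGCS1 measured 11.20 to 12.02 with a median of 11.60 in treated arrays of experiments 2 and 3, against 12.21, 12.24, 12.17 and 12.42 in those of experiment 1 (difference -0.68, SE 0.0893, adjusted p = 0.0134 by the limma F test). Over all clusters the calls fell from 1111 to 75 without replicate 1 of low-dose AA and to 171 without that of high-dose AA. The number of called genes of this list rested on single arrays as well. It dropped to 0 when replicate 1 of either low-dose or high-dose AA was left out, and was 6 without replicate 1 of IFN-α or replicate 3 of low-dose AA, 10 without replicate 2 of intermediate-dose AA and 11 without replicate 2 of low-dose AA.

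**Figure D5:**
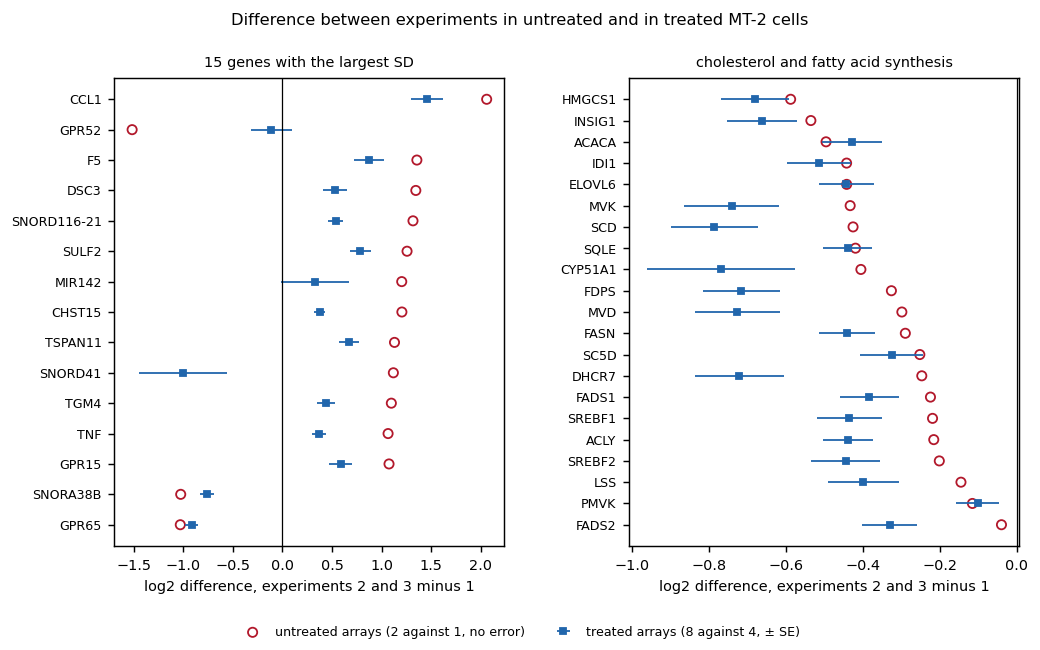
Difference between experiments in untreated and in treated MT-2 cells. The x axis is the log2 signal of experiments 2 and 3 minus that of experiment 1, open red circles are the untreated arrays (2 against 1, no error), and blue squares with bars are the 12 treated arrays with ± SE from limma. In the left panel 14 of 15 genes keep their sign, and in the right panel all 21 cholesterol and fatty acid synthesis genes lie below 0 in both sets.

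Glycolysis genes were also lower in experiments 2 and 3 in the treated arrays, in 19 of 19 genes with a median difference of -0.22, and in 13 of 19 in the untreated arrays, with a median of -0.04. By treatment, 18 of 19 were lower at low-dose AA, 18 at intermediate-dose AA, 19 at high-dose AA and 17 under IFN-α. The F test called 6 of the 19 (31.6%, against 4.3% of all genes), namely ALDOC, HK2, PFKFB3, PFKL, TPI1 and SLC2A3. Of these 6, SLC2A3 alone kept its call without replicate 1 of low-dose AA, replicate 1 of high-dose AA or replicate 3 of low-dose AA. Over all clusters the calls also fell in each of these fits. The call was lost by 4 of the 6 without replicate 1 of IFN-α or intermediate-dose AA or replicate 2 of intermediate-dose or low-dose AA, and by 3 without replicate 3 of intermediate-dose AA. NF-κB subunits and targets were lower in experiments 2 and 3 in 18 of 19 genes in the treated arrays, against 8946 of all 18377 genes. In the untreated arrays 8 of 19 were lower, against 10140 of all 18377 genes. The F test called 2 of these 19 (10.5%, against 4.3% of all genes).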

How the data were processed

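RNA of MT-2 cells was measured on 15 single-channel Affymetrix arrays, 3 per condition from 3 experiments. The log2 values were used as deposited. The authors made them by RMA (background correction, quantile normalization, summarization over the probes of a cluster) with xps 1.8.0. The genome build is not given in the sources used here, and it is not stated whether all arrays were summarized together. These values were not normalized again.

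Gene names come from the array annotation (1 symbol for 19310, several for 1752, none for 7864). Of the single symbols, 19279 matched RefSeq by gene identifier. Ranks, quartiles and SDs were computed on the 3 untreated arrays and have no test. The 32 lists hold 628 genes, of which 573 have a cluster of 1 symbol, and the other 55 were not analysed here. The members and lists were chosen with earlier results of these data known. Genes named are the markers, list members, the brightest clusters outside ribosomal proteins and those with the largest SD in the upper part of the ranking (above the median rank). Experiment differences were tested on the 12 treated arrays with limma 3.58.1 in R 4.3.3 (F test on 2 coefficients, treatment as a factor, default empirical Bayes, residual degrees of freedom 6, prior 4.2), and the test was checked on simulated data. The p-values set the experiment differences against the spread that remains between these arrays once treatment and experiment are fitted. They do not measure the spread between independent cultures or dates. Experiments 2 and 3 share a date in the titles, and if they are splits of 1 culture the test compares 1 date with another. Ranks and plots used Python 3.11.15 with matplotlib 3.10.9.

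The alternatives were other rank populations, other choices among the clusters of a gene, other thresholds and background genes, cyclic loess, other variance models, and leaving out each array.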

Additional observations from a re-analysis of the deposited data

How the results depend on the processing

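The counts in the top quartile were within 1.5 times the reported ones under ranking over every cluster, the mean or the dimmest cluster of a gene, the mean of rank percentiles, no clusters of repeated values, and without each untreated replicate. Ranking over every cluster gave fewer members in the bottom quartile, with 6 T-cell, 21 cytokine and 1 metabolic gene, in place of 11, 32 and 4. The top 10% held 7 cytokine and 15 receptor genes. The bottom 10% held 4 T-cell, 13 cytokine, 13 receptor and 1 metabolic gene, and the lowest tercile held 2 genes of HTLV-1 transformation and 7 metabolic genes. With keratin-associated protein and bitter taste receptor genes as background, 24 T-cell, 12 cytokine and 31 receptor genes exceeded the level, in place of 40, 34 and 55, so these counts depend on the background genes. The median SD was 0.0599 to 0.0830 over pairs of untreated arrays.

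The F test called 3642 clusters with array weights, in place of 1111. Without 1 treated array it called 75 (low-dose AA replicate 1) to 1901 (high-dose AA replicate 3) clusters, with 171, 174 and 353 without replicate 1 of high-dose AA, IFN-α and intermediate-dose AA, 510, 424, 368 and 369 without replicate 2 of high-dose AA, IFN-α, intermediate-dose AA and low-dose AA, and 426 and 260 without replicate 3 of intermediate-dose AA and low-dose AA. Fits without 1 array called 0 to 20 cholesterol and fatty acid synthesis genes and 3 to 13 of the 15 genes with the largest SD. The cause was not tested. No paired analysis was possible because the replicate number is itself the factor tested, with treatment already in the model. In all, 146 alternative values stayed within 1.5 times or 1 SD of the reported ones and 39 did not. The number of arrays limits what could be detected.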

Other observations

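Genes of the cell cycle were bright in untreated MT-2 cells. Of 23 proliferation genes, 21 lay in the top quartile and none in the bottom quartile, at a median percentile of 95. MKI67, a nuclear protein of dividing cells, measured 11.34, 11.04 and 11.22 in replicates 1, 2 and 3, CDK4 11.56, 11.58 and 11.58, and the helicase subunit MCM7 11.23, 11.16 and 11.23. CDK1 (8.81, 8.36 and 8.63) and CCNE1 (7.77, 8.07 and 8.05) were outside the top quartile. Interferon-stimulated genes held low ranks as a group without added interferon. Of 25, 3 were in the top quartile (12%, against 25.1% of all genes) and 11 in the bottom quartile (44%, against 24.9%). The background level was exceeded in all 3 arrays by 11 of them (44%, against 66.2%). USP18, which restrains interferon signalling, averaged 9.35 ± 0.31 (SD, n = 3), IFI6 measured 8.86, 9.42 and 9.40, and BST2, which tethers budding virus, 8.95, 8.98 and 9.14. IFIT1 (4.04, 4.31 and 4.24), IFI44L (4.62, 4.64 and 4.64) and RSAD2 (4.78, 5.01 and 4.94) were below the background level in every array. IFIT3 measured 6.62 and 7.09 in replicates 2 and 3, against 5.90 in replicate 1.

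The 15 brightest genes outside ribosomal proteins were GAPDH, PTMA, FAF2, HSPA8, EEF1A1, ACTG1, MT2A, ACTB, H1-4, TUBB, EEF1G, LDHA, UBB, IL2RA and CANX, with mean log2 signals of 14.03 to 13.25. IL2RA was the only receptor of lymphocytes among them. FAF2 has another cluster, at percentile 96.7, and PTMA has 6 clusters, the dimmest at 50.3, so the rank of these genes depends on the cluster chosen.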
